A study of Mus musculus with 20 samples.

Results

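The genes described here are protein-coding genes of the mitochondrial respiratory chain and ATP synthase, as measured by RNA sequencing during the chemical reprogramming of mouse fibroblasts. Members were chosen by symbol, with no use of their levels. The mitochondrial genes were those named mt-Nd, mt-Co, mt-Cyt or mt-At. The nuclear genes were those named Ndufa, Ndufb, Ndufc, Ndufs or Ndufv followed by a digit, Sdha to Sdhd, Uqcr, Cox4 to Cox8 or Atp5. This gave 97 of 47643 genes, of which 13 lie on mitochondrial DNA and 84 in the nucleus. Subunits with other symbols, such as Cyc1 (cytochrome c1 of complex III) and Ndufab1 (complex I, counted with the assembly factors), are left out. By symbol, complex I held 44 of them (37 nuclear), complex II 4 (all nuclear), complex III 9 (8 nuclear), complex IV 21 (18 nuclear) and complex V 19 (17 nuclear).

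The respiratory chain passes electrons from NADH through complex I, or from succinate through complex II, to ubiquinone, then through complex III and cytochrome c to complex IV and oxygen. Complexes I, III and IV pump protons, and complex V, the ATP synthase, uses the gradient to make ATP. Complex II is coded in the nucleus alone, while the other complexes join subunits of both genomes. Mitochondrial DNA is transcribed as long RNAs that are cut into single messages, and pluripotent stem cells are known to rely more on glycolysis than most differentiated cells.

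Mouse embryonic fibroblasts (MEFs) of strain B6DBA were turned by small molecules alone into chemically induced pluripotent stem (CiPS) cells, and the stated question was how crotonic acid, a short-chain fatty acid, promotes this. Some cultures received 6 to 8 mM crotonic acid continuously from day 16 to day 28. Of the 19 libraries analysed, 6 came from cells with crotonic acid (days 20, 24 and 28, in duplicate) and 8 from untreated reprogramming cells (the same days and day 16, in duplicate). The established lines gave 4 libraries: a pair of CiPS lines from the crotonic acid method, 1 CiPS line of the three-step method, and an embryonic stem (ES) line of the same strain. The starting MEFs gave 1 library. A CiPS line of the BrdU method was not analysed here, and no embryonic age is stated. Whether duplicates are separate cultures is not stated either: the p-values reflect the scatter among these libraries alone, and that scatter may be technical.

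Library totals ran from 17475848 to 26609755 counts. Fibroblast markers (10 genes) summed to 75060 CPM (counts scaled to a common library size) in MEFs, and pluripotency markers (10 genes) to between 4584 and 5537 CPM in the CiPS and ES lines against 3.91 CPM in MEFs, where 5 of the 10 were at 0. The lines also held fibroblast transcripts, at 15094 to 19824 CPM in CiPS lines and 21298 CPM in the ES line, against 2474 to 2988 CPM at day 28. In such mixed samples, fewer cells of a type and less RNA per cell cannot be told apart. Liver markers (14 genes) stood apart among the reprogramming libraries in 2 treated ones, at 59.4 CPM in D20 with crotonic acid replicate 2 and 164 CPM in D28 with crotonic acid replicate 1.

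The share of all counts that came from the 13 mitochondrial genes was 0.925% in MEFs. It was 3.24% and 2.26% at day 16, 2.65% and 2.61% at day 20, 2.57% and 2.75% at day 24, and 3.29% and 2.76% at day 28. In the CiPS lines it was 1.55% and 1.45% with the crotonic acid method and 2.09% with the three-step method, and in the ES line 1.72%. All 14 reprogramming libraries lay above all lines, and all lines above the MEF library. The 84 nuclear genes took 0.774% of counts in MEFs, 1.08% and 1.24% at day 16, 1.28% and 1.13% at day 28, 1.03% to 1.08% in the CiPS lines and 0.9995% in the ES line. Their range was narrower: the mean of the day 16 libraries was 1.5 times the MEF value for nuclear genes and 2.97 times for mitochondrial genes. Summed as CPM in place of shares, these were 1.18 times for nuclear and 2.37 times for mitochondrial genes. The mitochondrial over nuclear ratio of counts was therefore 2.42 ± 0.84 at day 16 (SD, n = 2), against 1.20 in MEFs. A single gene, mt-Co1, which codes for the catalytic core subunit of complex IV, made up 40.6% of mitochondrial member counts in MEFs and 60.7% in D28 replicate 2, the extremes of the 19 libraries.

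**Figure D1:**
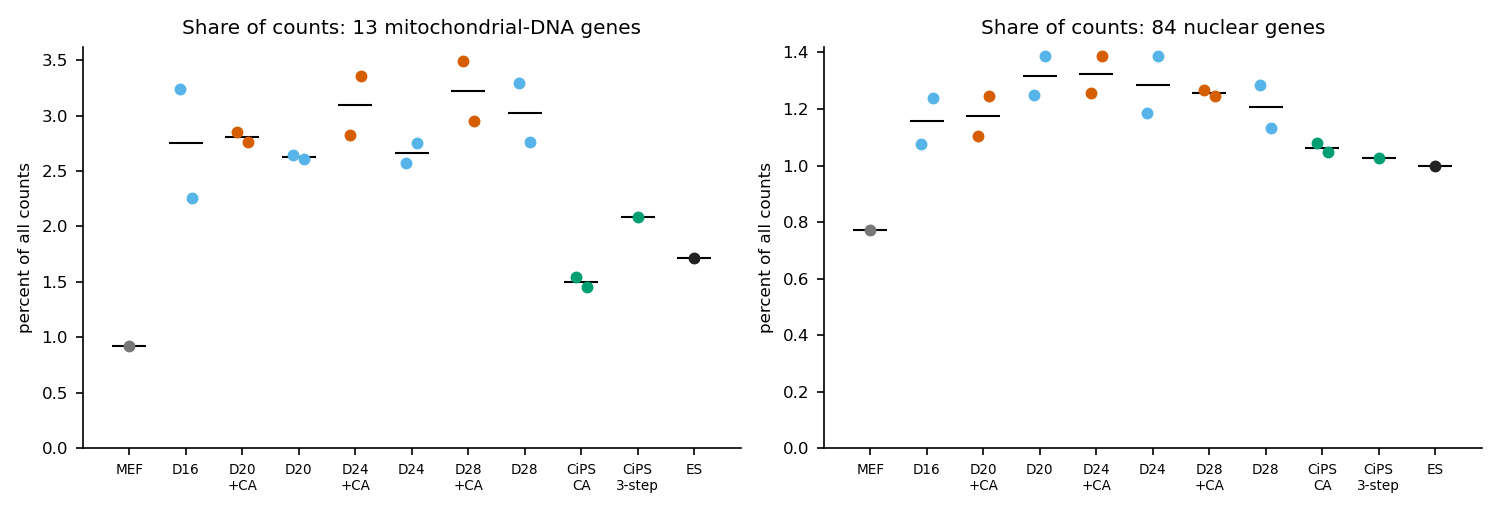
Percent of all counts from the 13 mitochondrial (left) and 84 nuclear (right) genes in each library, by group along the x axis; points are libraries, bars are group means, and orange marks crotonic acid (CA). Mitochondrial shares ran from 2.26% to 3.49% in reprogramming cells and lay below 2.1% in every line.

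Several mitochondrial genes have near-identical copies in the nuclear genome, and their levels are uncertain. For 5 of them a copy with at most 1 mismatch covers 99% or more of the gene. Copies annotated on chromosome 1 matched mt-Co2 (Gm28661, 681 of 684 bases), mt-Atp6 (Gm10925, 678 of 681), mt-Co3 (Gm28437, 783 of 784) and mt-Nd4l (Gm10222, 294 of 297) without a mismatch over the aligned stretch. The copy of mt-Nd3, Gm28438, matched 345 of 348 bases with 1 mismatch, T3C, counted from the first base of the gene. The start of that gene at chrM:9459-9491 (GRCm38, plus strand) and the same stretch of the copy are shown, with the differing base in capitals, since no read without that base separates the pair.
mt-Nd3: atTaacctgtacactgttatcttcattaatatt
Gm28438: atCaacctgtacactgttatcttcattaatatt
Other copies were partial or less alike: Gm28439 matched mt-Nd4 over 876 of 1378 bases without a mismatch, Gm29216 matched mt-Co1 over 483 of 1545 bases with 1 mismatch, and Gm13340 matched the whole of mt-Co1 at 97.6% identity. Copies of mt-Nd2 (Gm13339, 510 of 1038 bases, 96.7%) and mt-Nd5 (Gm4076, 954 of 1824 bases, 95.2%) were also found. For mt-Atp8 no copy is listed, but it shares its last 43 bases with the start of mt-Atp6, at chrM:7927-7969. It is printed whole, chrM:7766-7969 (GRCm38, plus strand), with the shared bases in capitals.
mt-Atp8: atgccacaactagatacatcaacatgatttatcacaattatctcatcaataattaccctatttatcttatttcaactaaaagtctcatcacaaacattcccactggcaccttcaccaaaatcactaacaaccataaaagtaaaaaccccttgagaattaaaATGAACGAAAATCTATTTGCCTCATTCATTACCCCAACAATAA
No source used here says how reads that fit more than 1 gene were counted. The 5 genes with such copies and mt-Atp8 together took 0.00873% to 0.0321% of counts, and mt-Atp8 had an FPKM of 0 in MEFs and a mean of 0.23 over the 19 libraries.

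Levels can be compared between genes only per length, on the deposited FPKM scale. Averaged over the 19 libraries, mt-Co1 stood at 7883 FPKM, mt-Nd1 at 3092, mt-Cytb, the only mitochondrial gene of complex III, at 2597, mt-Nd2 at 1681, mt-Nd4 at 1477, mt-Nd5 at 1233 and mt-Nd6 at 920.4. The 5 genes with a copy of at most 1 mismatch over nearly their whole length were listed far lower, at 81.6 FPKM for mt-Co2, 72.8 for mt-Co3, 63.4 for mt-Atp6, 33.2 for mt-Nd3 and 9.76 for mt-Nd4l. Nuclear members were ranked within each complex. In complex IV, Cox6a1 (665 FPKM), Cox8a (512), Cox6b1 (265) and Cox7c (256) stood highest, and in complex V Atp5b (333), Atp5mpl (309), Atp5a1 (308) and Atp5l (155). In complex III these were Uqcr11 (202), Uqcr10 (172), Uqcrh (122) and Uqcrq (108), and in complex II Sdhd (111). In complex I, Ndufs6 (152 FPKM), Ndufb9 (151), Ndufa1 (138) and Ndufa6 (125) led. The mean of the highest nuclear gene was thus below that of each of these 7 mitochondrial genes, some of which have partial or less alike copies. The strand of mt-Nd6 is opposite to that of mt-Nd5, and they overlap by 14 bases; no source used here says whether counting used strand.

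**Figure D2:**
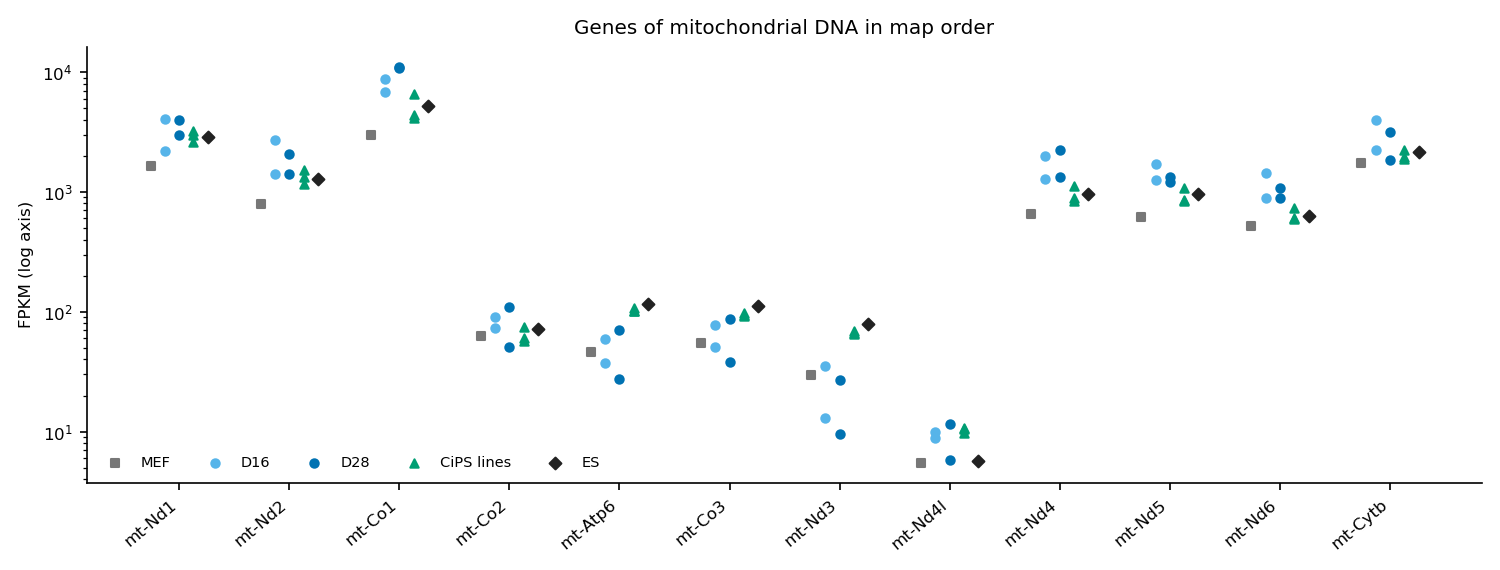
FPKM (log axis) of 12 mitochondrial genes in map order, 1 point per library, for MEF, D16, D28, CiPS lines and ES; mt-Atp8 is left out. The genes from mt-Co2 to mt-Nd4l, which have nuclear copies of at most 1 mismatch over nearly their whole length, lie far below their neighbours, and mt-Nd3 was higher in the CiPS lines than at D28.

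Day 16 cells held more mitochondrial message than MEFs, while nuclear subunits moved less. Counts were tested with edgeR's quasi-likelihood test and Benjamini-Hochberg adjustment over all genes, 0.05 being the threshold, and levels below are CPM scaled by the trimmed mean of M values (TMM), which are not corrected for length. Of 94 members tested, 17 rose and 1 fell at day 16, which is 19.1%, while 32.7% of all 19597 genes tested were called (17.4% higher, 15.3% lower). Among mitochondrial genes 6 of 12 rose and none fell, with a median log2 change of 0.92 against 0.03 over all genes, and among nuclear genes 11 of 82 rose and 1 fell, with a median of 0.20.

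The core subunit mt-Co1 had 14236 and 10775 CPM at day 16, against 4698 CPM in MEFs. It rose by 1.41 ± 0.29 on the log2 scale (SE, adjusted p = 0.0024). For mt-Nd5, a proton-pumping subunit of complex I, the values were 3268 and 2318 CPM at day 16, against 1146 CPM in MEFs. Both day 16 libraries lay above the MEF library for each of these genes, and replicate 1 was the higher. The log2 change of mt-Nd5 was 1.29 ± 0.23 (adjusted p = 0.0011). The other called genes were mt-Nd2 (1.43 ± 0.36, adjusted p = 0.00864), mt-Nd4 (1.36 ± 0.35, adjusted p = 0.00928), mt-Nd6 (1.20 ± 0.29, adjusted p = 0.00665) and mt-Nd1 (0.96 ± 0.31, adjusted p = 0.0308), all of complex I. For mt-Cytb, which did not pass the test, day 16 libraries had 4773 and 2621 CPM, against 2011 CPM in MEFs.

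By complex, the nuclear genes of complex III rose most often, 4 of 8, with a median log2 change of 0.44. Uqcrh, the hinge protein beside cytochrome c1, had 182 and 171 CPM at day 16, against 93.0 CPM in MEFs, a log2 rise of 0.92 ± 0.18 (adjusted p = 0.00191). The small subunits Uqcr11 (0.77 ± 0.20, adjusted p = 0.00946) and Uqcr10 (0.54 ± 0.19, adjusted p = 0.0429) and the Rieske iron-sulphur protein Uqcrfs1 (0.55 ± 0.14, adjusted p = 0.0102) rose as well. In complex IV 4 of 16 tested rose and 1 fell, in complex II Sdhd, a membrane anchor, rose (0.88 ± 0.21, adjusted p = 0.0068), and in complex I 2 of 37 rose. Ndufa6, an accessory subunit of complex I, had 90.3 and 69.3 CPM at day 16, against 46.4 CPM in MEFs (0.78 ± 0.23, adjusted p = 0.0198). None of 17 nuclear ATP synthase genes was called, with a median of 0.20, and 15 of the 17 changes were above 0.

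Fibroblast markers summed to 7035 and 2736 CPM at day 16, against 75060 CPM in MEFs, and endoderm markers to 10002 and 13112 CPM, against 3621 CPM in MEFs; their part in these changes was not tested. The calls of mt-Nd1 and Ndufa6 were lost without D16 replicate 1, and those of Cox6b1, Cox8a, Cox7a2, Uqcr10 and Ndufb3 without either day 16 library. The comparison rests on 1 MEF library, whose spread was taken from the groups with repeats: fitted with day 16 and MEF alone, 2 members were called. With library totals in place of TMM factors, which shift the median of all genes to 0.36, the nuclear split was 44 higher and 1 lower, and 7 mitochondrial genes rose. The share of all genes called in these alternative fits is not given here, so their counts have no background beside them.

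**Figure D3:**
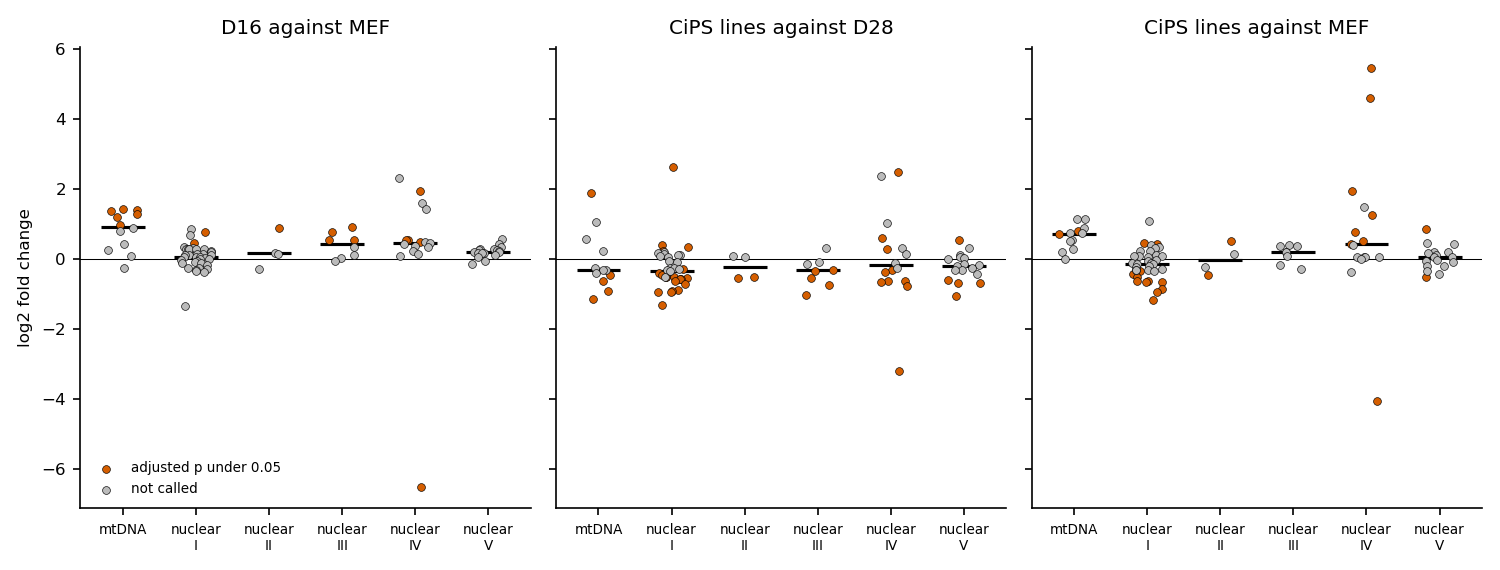
Log2 fold change of each tested member in 3 comparisons, for mitochondrial genes (mtDNA) and nuclear genes by complex; filled orange points had an adjusted p under 0.05, grey points did not, and bars are medians. At D16 the mitochondrial median lay at 0.92 and the nuclear median at 0.20. Against D28, the CiPS lines had medians of -0.32 and -0.30. The mitochondrial medians include the genes with a near-identical nuclear copy over nearly their whole length, whose levels are uncertain. Without them and mt-Atp8, mitochondrial counts in the CiPS lines took 0.556 times the share at D28, against 0.871 times for nuclear genes.

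From day 16 to day 28 the members as a group moved little. Of 93 tested, 1 rose and none fell, while 16.9% of all 17387 genes tested were called (10.1% higher, 6.8% lower). The median log2 change was -0.09 for mitochondrial and 0.10 for nuclear genes, against 0.01 over all genes. The gene that rose was Cox7b2, the testis form of complex IV subunit VIIb, described with the other isoforms. Samples with the same replicate number deviated together, and with the replicate number as a block 5 members rose, while 31% of all genes were called (16.8% higher, 14.2% lower): Cox7b2, mt-Co1 (0.47 ± 0.16, adjusted p = 0.0409), Cox6a1 (0.42 ± 0.13, adjusted p = 0.0359), Ndufs6 (0.40 ± 0.13, adjusted p = 0.0397) and Ndufb8 (0.33 ± 0.10, adjusted p = 0.0285). For mt-Co1 the day 28 libraries had 16778 and 16969 CPM, against 14236 and 10775 CPM at day 16, so the groups did not overlap. Leaving out either day 16 library gave 2 members in place of 1.

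Crotonic acid changed no member past the threshold at any day. At day 20, day 24 and day 28 edgeR called 0 of 93 members, and 0% of all genes; 3, 1 and 0 members had an unadjusted p under 0.05, and DESeq2, limma-voom and the block called 0 members on each day. With the block 0.0345%, 0.535% and 0.615% of all genes were called on these days. Averaged over the 3 days, 0 members were called, with 2 at an unadjusted p under 0.05, while 1.04% of all genes were called; with the block 0 members and 7.42% of all genes were called. The change of the effect between day 28 and day 20 was past the threshold for 0 members, with 0 at an unadjusted p under 0.05. The largest rise over the 3 days was that of Cox4i2, an isoform of complex IV subunit IV known from lung and low oxygen. It had 1.05 and 1.05 CPM at day 20, 1.24 and 1.20 CPM at day 24, and 1.15 and 1.44 CPM at day 28 with crotonic acid, against 0.694 and 0.470, 0.255 and 0.614, and 0.459 and 0.949 CPM without. On each day both treated libraries lay above both untreated libraries. The mean log2 difference was 1.06 ± 0.34 (adjusted p = 0.211, and 0.0991 with the block), at counts of 32 or fewer in each treated library.

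The mitochondrial share of counts was higher with crotonic acid in 6 of 6 pairs of the same replicate number, although each difference was small. It was 2.85% and 2.76% with crotonic acid at day 20, against 2.65% and 2.61% without. At day 24 it was 2.83% and 3.36% with crotonic acid, against 2.57% and 2.75% without. At day 28 it was 3.49% and 2.95% with crotonic acid, against 3.29% and 2.76% without, so that the groups overlapped at day 28 and did not at days 20 and 24. Summed as CPM, mitochondrial counts were also higher in 6 of 6 pairs. At day 28 the treated CPM sums were only 1.01 and 1.02 times the untreated ones, against 1.06 and 1.07 times for the shares. Of the 12 mitochondrial genes tested, mt-Cytb, mt-Nd1, mt-Nd5 and mt-Nd6 were higher with crotonic acid in all 6 pairs, which is 33.3%, against 11.5% of all genes, and 6 of 81 nuclear genes were lower in all 6 pairs, or 7.41%, against 10.1% of all genes. At day 20 alone, mt-Atp6, mt-Co2, mt-Co3 and mt-Nd4 were lower with crotonic acid without overlap, or 33.3%, against 16.7% of all genes. On that day 3 of 12 were higher without overlap, or 25%, against 18.2% of all genes. For mt-Nd6 the treated libraries had 527 and 522 CPM at day 20, 492 and 654 CPM at day 24, and 644 and 568 CPM at day 28, against 521 and 508, 393 and 505, and 557 and 462 CPM untreated. Its mean log2 difference was 0.20 ± 0.13 (adjusted p = 0.61). The genes share libraries and are not independent of each other, and 2 of the treated libraries held liver transcripts. An alternative chosen after seeing the data left out those 2 libraries. The mitochondrial median was then -0.01 in place of -0.05 at day 20 and -0.23 in place of 0.22 at day 28. Over the 3 days it was -0.04 in place of 0.09. That fit sets 1 treated library against both untreated ones at days 20 and 28, which breaks the pairs. In the pair of replicate 2 at day 28, the mitochondrial share was 2.95% with crotonic acid and 2.76% without.

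Nuclear members took a lower share at day 20 with crotonic acid, 1.10% and 1.25%, against 1.25% and 1.39% without. At that day 72 of 81 nuclear genes had a log2 difference below 0, with a median of -0.17 against 0.00 over all genes. Both treated libraries lay below both untreated libraries for 43 of the 81, or 53.1%, against 16.7% of all genes. The smallest unadjusted p among them, 0.00925, was that of Atp5mpl, a small subunit of ATP synthase, with 98.0 and 108 CPM treated against 136 and 148 CPM untreated and a log2 difference of -0.47 ± 0.15 (adjusted p = 1). The pattern was not present on the later days: 1 of 81 was lower without overlap at day 24 (14.7% of all genes) and 8 of 81 at day 28 (15.4% of all genes), with nuclear medians of 0.01 and -0.04. Scaled by library totals the nuclear median was 0.03 at day 28. Without the 2 libraries with liver transcripts it was -0.26 at day 20, with replicate 1 alone set against both untreated libraries.

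**Figure D4:**
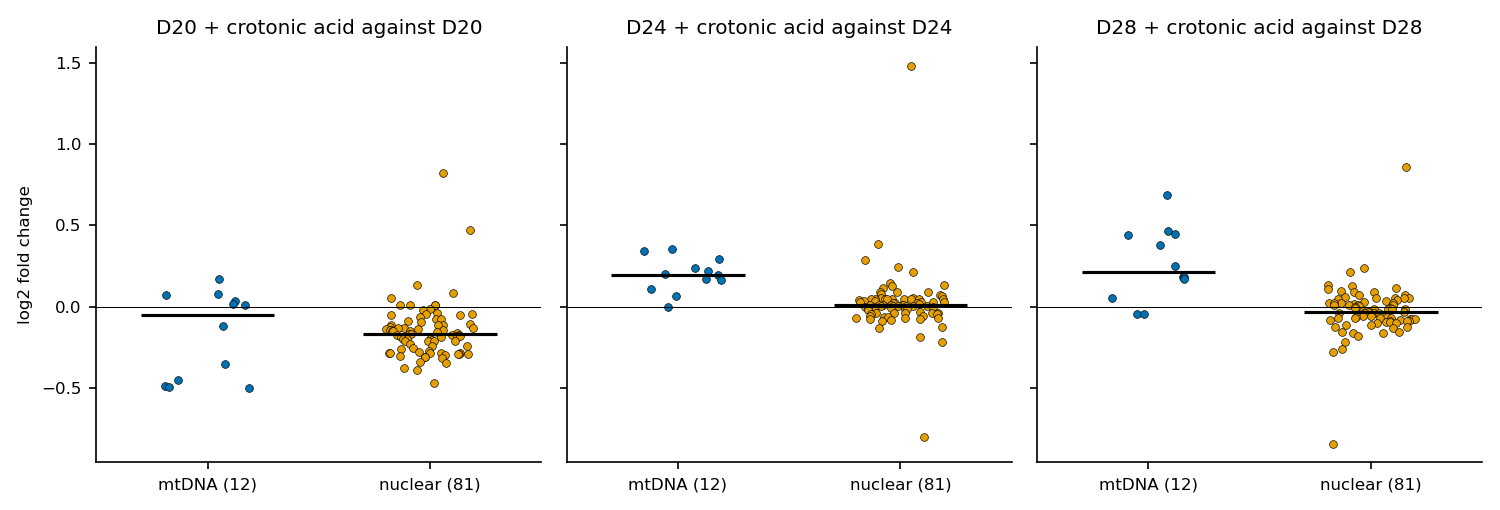
Log2 fold change of cells with crotonic acid against untreated cells at each day, for the 12 mitochondrial and 81 nuclear members tested; points are genes and bars are medians. No gene passed the threshold; the nuclear median was -0.17 at D20, 0.01 at D24 and -0.04 at D28, and the mitochondrial median -0.05, 0.20 and 0.22 (-0.23 at D28 without the 2 treated libraries that held liver transcripts).

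In the CiPS lines more nuclear subunits fell than rose against day 28 cells. Of 94 members tested, 9 rose and 40 fell, or 52.1%, while 59.5% of all genes were called (29.1% higher, 30.4% lower). Among nuclear genes 8 of 82 rose and 36 fell, with a median log2 change of -0.30 against 0.02 over all genes. In complex I 4 of 37 nuclear genes rose and 18 fell, in complex II none of 4 rose and 2 fell, in complex III none of 8 rose and 5 fell, in complex IV 3 of 16 rose and 7 fell, and in complex V 1 of 17 rose and 4 fell. Within complex I, 4 of 10 genes of the NADH-oxidising N module, 2 of 5 of the ubiquinone-reducing Q module, 7 of 15 of the proximal membrane arm and 7 of 12 of the distal membrane arm fell, mitochondrial subunits included. These modules leave out Ndufa4, counted with complex I by its symbol but now known as a subunit of complex IV, and its relative Ndufa4l2.

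Ndufa6 had 43.4 and 40.2 CPM in the crotonic acid lines and 43.1 CPM in the three-step line, against 95.4 and 115 CPM at day 28. It fell by 1.32 ± 0.16 on the log2 scale (adjusted p = 1.97e-05), and lines and day 28 did not overlap. Uqcrh had 84.3, 87.9 and 75.7 CPM in the same lines, against 187 and 153 CPM at day 28, a fall of 1.04 ± 0.13 (adjusted p = 1.85e-05). Atp5e, the epsilon subunit in the central stalk of ATP synthase, had 107, 112 and 102 CPM in the lines, against 259 and 191 CPM at day 28, and fell by 1.07 ± 0.14 (adjusted p = 2.34e-05). All 3 genes had lower values in every CiPS line than in either day 28 library. Next by size were the complex I subunits Ndufa12 (-0.95 ± 0.12), Ndufa5 (-0.95 ± 0.14) and Ndufa3 (-0.91 ± 0.17), each with an adjusted p of 0.00049 or less.

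The rises were fewer. Atp5b, the catalytic beta subunit of ATP synthase, had 1901, 1873 and 1846 CPM in the CiPS lines, against 1248 and 1303 CPM at day 28, and rose by 0.55 ± 0.13 (adjusted p = 0.00315). Cox5a, a nuclear subunit of complex IV, had 64.0, 52.5 and 56 CPM in the lines, against 39.2 and 37.3 CPM at day 28 (0.59 ± 0.16, adjusted p = 0.00737). In both genes each line exceeded each day 28 library. Ndufb4 (0.39 ± 0.15, adjusted p = 0.0372) and Ndufa11 (0.33 ± 0.13, adjusted p = 0.0457) lost the call without D28 replicate 2, and each also without either crotonic acid line.

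Of the mitochondrial genes, mt-Co1 fell furthest. It had 6631 and 6312 CPM in the crotonic acid lines and 10032 CPM in the three-step line, against 16778 and 16969 CPM at day 28, a log2 fall of 1.14 ± 0.20 (adjusted p = 0.000307). Also lower were mt-Nd4 (-0.91 ± 0.24, adjusted p = 0.00548), mt-Nd6 (-0.62 ± 0.20, adjusted p = 0.0176) and mt-Nd5 (-0.47 ± 0.16, adjusted p = 0.0237), whose calls were lost without D28 replicate 1. Of these, mt-Nd5 and mt-Nd6 also lost the call without either crotonic acid line. In the other direction, mt-Nd3 had 23.7, 22.9 and 22.6 CPM in the lines, against 9.33 and 3.30 CPM at day 28 (1.87 ± 0.67, adjusted p = 0.0274). That call was lost without D28 replicate 2 or without the first crotonic acid line, and mt-Nd3 is one of the genes with a near-identical nuclear copy. The copy Gm28438 itself had 8.67, 9.39 and 8.43 CPM in the lines, against 10.3 and 3.16 CPM at day 28.

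Endoderm markers summed to 1059 to 1163 CPM in the CiPS lines, against 15722 and 21408 CPM at day 28, and fibroblast markers to 15094 to 19824 CPM, against 2474 and 2988 CPM; their part in these changes was not tested. Leaving out single libraries gave 35 to 44 members in place of 49.

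Against the MEFs similar numbers of members rose and fell. Of 94 tested, 13 rose and 14 fell in the CiPS lines, or 28.7%, while 53.1% of all genes were called (25.7% higher, 27.4% lower). In complex IV 7 of 16 nuclear genes rose and 1 fell, with a median of 0.42, and in complex I 2 of 37 rose and 11 fell, with a median of -0.14. In complex II 1 of 4 rose and 1 fell, in complex III none of 8 was called, and in complex V 1 of 17 rose and 1 fell; the difference between complexes was not tested. Cox5a had 64.0, 52.5 and 56 CPM in the lines, against 23.8 CPM in MEFs (1.27 ± 0.22, adjusted p = 0.000397), and Cox7c had 345, 337 and 313 CPM, against 193 CPM (0.78 ± 0.16, adjusted p = 0.00119). Atp5b rose by 0.85 ± 0.18 (adjusted p = 0.00137). Ndufa5 had 33.0, 35.2 and 27.6 CPM in the lines, against 72.1 CPM in MEFs (-1.18 ± 0.17, adjusted p = 8.85e-05). Ndufa8 (-0.94 ± 0.15, adjusted p = 0.000263) and Ndufa2 (-0.85 ± 0.18, adjusted p = 0.00134), both of complex I, fell as well, as did Ndufs8, Ndufa3 and Ndufs5. All 12 mitochondrial genes tested had log2 changes above 0, with a median of 0.72, but mt-Nd1 (0.81 ± 0.29, adjusted p = 0.0342) and mt-Co1 (0.71 ± 0.27, adjusted p = 0.0396) alone passed the test, and both lost the call without the three-step line, mt-Nd1 also without the first crotonic acid line. The comparison shares its CiPS libraries with the one against day 28 and rests on 1 MEF library. Scaled by library totals, which move the median of all genes to 0.29, the nuclear split was 27 higher and 5 lower instead of 11 higher and 14 lower, so the direction for the nuclear group depends on the scaling. The share of all genes called under that scaling is not given here.

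Between CiPS and ES lines no difference passed the test. In edgeR 0 of 94 members were called, with 0 at an unadjusted p under 0.05, and DESeq2 and limma-voom called 0, while 0.0204% of all genes were called; this rests on 1 ES line. Of 82 nuclear genes, 74 had a log2 difference above 0, with a median of 0.11 against 0.01 over all genes. The largest difference from the ES line among members in the isoform list was that of Ndufa4l2, with 8.62, 7.18 and 16.1 CPM in the CiPS lines, against 3.73 CPM in ES cells (1.51 ± 0.89, adjusted p = 1). Within the CiPS group the three-step line had the highest mitochondrial share, 2.09%, against 1.55% and 1.45% in the crotonic acid lines; with 1 line of that method this has no replicate check.

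Subunits with tissue-specific isoforms held the widest changes. Cox7b2 had 0 CPM in MEFs, 0.0455 and 0 CPM at day 16, 0.408 and 0.470 CPM at day 20, 1.10 and 1.18 CPM at day 24, and 1.83 and 2.80 CPM at day 28. It was higher at each later day without overlap, and the lines had 0.371, 0.133 and 0.241 CPM, with 0.149 CPM in ES cells. The day 28 libraries held 98 counts, against 1 count at day 16, a ratio of 103 with an exact 95% counting interval of 18.1 to 4112. Its log2 rise passed the test with an adjusted p of 0.000123, and its fall in the CiPS lines against day 28 was 3.20 ± 0.41 (adjusted p = 2.37e-05). The lines held 17 counts, against 0 in MEFs, at least 1.74-fold higher by a floor of 3 counts in the MEF library. With crotonic acid the level was 1.84 and 2.17 CPM at day 28, against 1.83 and 2.80 CPM without, so the groups overlapped.

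Cyct, the testis form of cytochrome c, and Slc25a31, the testis form of the ADP/ATP carrier, are no members but serve the same chain. Cyct had 14.9 and 18.4 CPM at day 28, against 0.0455 and 0 CPM at day 16, and the counts, 699 against 1, gave a ratio of 735 (interval 132 to 29081). Slc25a31 had 8.66 and 4.47 CPM at day 28, against 0 CPM in both day 16 libraries, at least 94.3-fold higher by a floor of 3 counts over the group. Germ cell markers (10 genes) were also higher at day 28, at 98.5 and 100.2 CPM, against 16.2 and 17.0 CPM at day 16. There Mael, Sohlh2 and Tex101 were at 0. In the CiPS lines these markers stood at 104 to 193 CPM, while Cox7b2 was lower than at day 28. Slc25a31 was lower as well (-1.80 ± 0.48, adjusted p = 0.00686), and Cyct was about level (-0.0077 ± 0.26). The part of the germ cell markers was not tested. The somatic carrier Slc25a4 had 331 and 271 CPM at day 28, against 526 and 653 CPM at day 16, and fell by 0.93 ± 0.15 (adjusted p = 0.00212).

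Cox6b2, the testis form of subunit VIb, had 80.5 and 62.6 CPM at day 16, against 18.8 CPM in MEFs, and rose by 1.93 ± 0.17 (adjusted p = 5.35e-06). It stayed between 47.7 and 73.3 CPM in all later libraries and lines. Its partner Cox6b1, the common form, had 188 and 192 CPM at day 16, against 130.3 CPM in MEFs (0.55 ± 0.19, adjusted p = 0.0397), a call that was lost without either day 16 library. Cox8c, another testis form, had at most 3 counts in any library.

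Cox7a1, the heart and skeletal muscle form of subunit VIIa, had 14.7, 12.9 and 20.9 CPM in the CiPS lines and 15.1 CPM in ES cells, against 3.06 and 2.71 CPM at day 28 and 0.659 CPM in MEFs. Each line lay above every other library, and the log2 rise in CiPS lines was 2.49 ± 0.40 against day 28 (adjusted p = 0.000167) and 4.61 ± 0.64 against MEFs (adjusted p = 7.73e-05). Cox6a2, the muscle form of subunit VIa, did the opposite against MEFs: day 16 libraries held 2 counts, against 101 counts in MEFs, a ratio of 0.00958 (interval 0.00114 to 0.0355). In the CiPS lines it had 0.417, 0.177 and 0.241 CPM, against 4.75 CPM in MEFs (-4.07 ± 0.73, adjusted p = 0.000512). Cox8b, a muscle form of subunit VIII, had at most 1 count in any library; with Cox8c and mt-Atp8 it was below the test's count minimum, as was Cox6a2 where the reprogramming libraries were fitted alone. Striated muscle markers (20 genes) summed to 209 to 236 CPM in the CiPS lines, against 45.7 and 49.3 CPM at day 28 and 211 CPM in MEFs; their part was not tested. Ndufa4l2, known as a gene induced by low oxygen, had 8.62, 7.18 and 16.1 CPM in the CiPS lines, against 1.99 and 1.45 CPM at day 28, and rose by 2.63 ± 0.72 (adjusted p = 0.00705). Without D28 replicate 2 that call was lost.

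**Figure D5:**
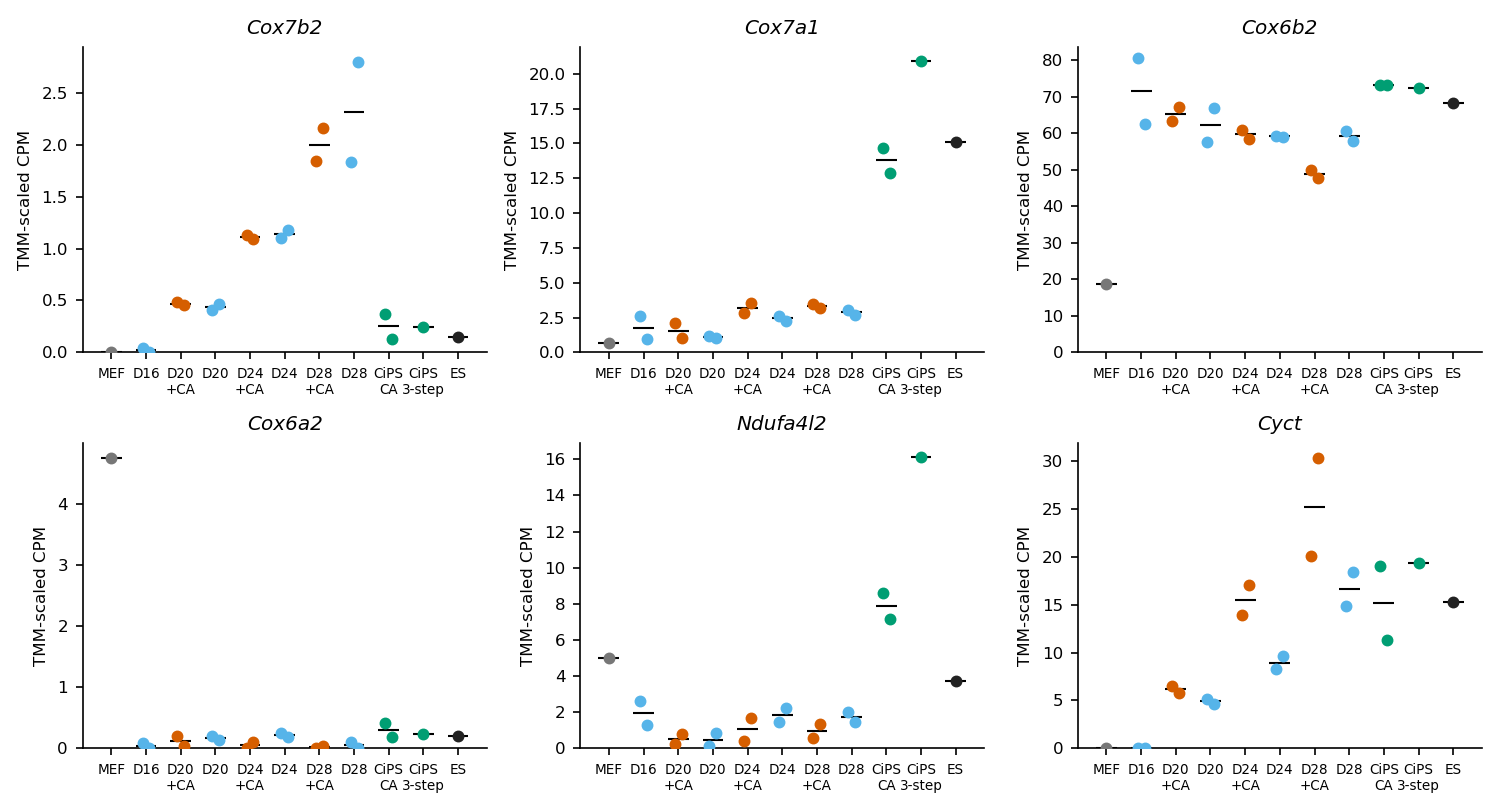
TMM-scaled CPM of 5 tissue-specific members and of Cyct in each library, by group along the x axis; points are libraries, bars are group means, and each axis starts at 0. Cox7b2 reached 1.83 and 2.80 CPM at D28 and was 0.371 CPM or less in the lines, while Cox7a1 was 12.9 CPM or more in the lines.

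Promoter sequences are given for the genes these changes turn on: Uqcrh and Ndufa6, which fell in the CiPS lines against day 28, Atp5b, which rose, and the isoform genes Cox6b2, Cox7a1 and Cox7b2. They come from RefSeq (GRCm38.p6) and run from 250 bases before to 50 after the annotated start, 5′ to 3′ on the gene's strand. Capitals mark matches on either strand to GCATGCGC (NRF1), CCGGAAG (ETS factors), ATGGCGG (YY1), CCAAT (the CCAAT box) or TCAAGGTCA (oestrogen-related receptors).
Uqcrh, chr4:116075021-116075320, minus strand: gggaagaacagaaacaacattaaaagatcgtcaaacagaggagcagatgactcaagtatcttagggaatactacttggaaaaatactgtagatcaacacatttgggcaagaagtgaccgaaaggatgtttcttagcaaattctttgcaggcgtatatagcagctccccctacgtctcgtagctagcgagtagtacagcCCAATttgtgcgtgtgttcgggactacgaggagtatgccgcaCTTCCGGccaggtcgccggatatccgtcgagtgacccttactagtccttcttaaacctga
Ndufa6, chr15:82354242-82354541, minus strand: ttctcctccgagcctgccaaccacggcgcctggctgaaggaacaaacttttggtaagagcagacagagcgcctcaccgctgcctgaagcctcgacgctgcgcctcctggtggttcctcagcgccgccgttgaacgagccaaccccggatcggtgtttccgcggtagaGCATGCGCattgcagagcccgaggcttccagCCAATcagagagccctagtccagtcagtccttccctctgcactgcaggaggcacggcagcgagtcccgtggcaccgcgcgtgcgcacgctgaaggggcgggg
Atp5b, chr10:128083057-128083356, plus strand: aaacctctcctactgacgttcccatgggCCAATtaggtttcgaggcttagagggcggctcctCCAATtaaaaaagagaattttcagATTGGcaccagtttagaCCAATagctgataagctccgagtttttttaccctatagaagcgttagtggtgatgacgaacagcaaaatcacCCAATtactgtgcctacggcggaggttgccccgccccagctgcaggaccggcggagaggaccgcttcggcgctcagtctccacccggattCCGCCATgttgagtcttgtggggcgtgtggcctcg
Cox6b2, chr7:4753045-4753344, minus strand: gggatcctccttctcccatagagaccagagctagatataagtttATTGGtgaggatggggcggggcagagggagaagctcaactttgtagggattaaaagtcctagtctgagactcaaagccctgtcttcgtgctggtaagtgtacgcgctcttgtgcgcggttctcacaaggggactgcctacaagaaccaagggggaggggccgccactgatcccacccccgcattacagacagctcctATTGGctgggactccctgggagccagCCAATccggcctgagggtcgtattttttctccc
Cox7a1, chr7:30183921-30184220, plus strand: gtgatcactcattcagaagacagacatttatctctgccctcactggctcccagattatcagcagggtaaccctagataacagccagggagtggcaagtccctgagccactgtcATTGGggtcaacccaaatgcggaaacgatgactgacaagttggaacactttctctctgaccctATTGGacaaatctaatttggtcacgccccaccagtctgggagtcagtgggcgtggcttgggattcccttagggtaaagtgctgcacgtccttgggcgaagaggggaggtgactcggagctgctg
Cox7b2, chr5:71548156-71548455, minus strand: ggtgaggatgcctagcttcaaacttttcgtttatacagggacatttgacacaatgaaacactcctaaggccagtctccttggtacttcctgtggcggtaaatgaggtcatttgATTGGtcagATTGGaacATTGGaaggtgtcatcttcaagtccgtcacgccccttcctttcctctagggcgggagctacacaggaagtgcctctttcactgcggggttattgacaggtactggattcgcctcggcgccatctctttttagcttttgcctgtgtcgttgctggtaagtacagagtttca
The Uqcrh window held an ETS and a CCAAT match, Ndufa6 an NRF1 and a CCAAT match, and Atp5b a YY1 match and 5 CCAAT matches. The windows of Cox6b2, Cox7a1 and Cox7b2 held 3, 2 and 3 matches, all to CCAAT. Over the 71 windows of the 66 nuclear members in the table, 14.1% held the NRF1 letters, against 2.71% of all 32851 windows. The ETS letters stood in 22.5%, against 8.86%, the YY1 letters in 15.5%, against 4.05%, CCAAT in 42.3%, against 37.4%, and the ERR letters in 2.82%, against 0.423%. The comparison set was every window, not windows matched for base content or expression, and the ERR share rests on 2 windows. A match of letters shows no binding.

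Other genes of the same machinery were counted by list. Of 25 genes for replication, transcription and RNA stability of mitochondrial DNA, 4 rose and none fell at day 16 against MEFs, or 16%, against 32.7% of all genes, with a median of 0.45. In the CiPS lines 12 rose and 1 fell against MEFs, or 52%, against 53.1% of all genes, with a median of 0.53. Against day 28, 7 rose and 2 fell, or 36%, against 59.5% of all genes. Tfam, which packages mitochondrial DNA and activates its transcription, had 76.4, 71.9 and 74.9 CPM in the CiPS lines, against 39.3 CPM in MEFs (0.92 ± 0.15, adjusted p = 0.000229). Lrpprc, which keeps mitochondrial messages stable, had 111 and 148 CPM at day 16, against 78.4 CPM in MEFs (0.73 ± 0.17, adjusted p = 0.00665). Among 47 assembly factors, of which 45 were tested, 7 rose and 16 fell in the CiPS lines against day 28, or 51.1%, against 59.5% of all genes, with a median of -0.22. Coa3, an assembly factor of complex IV, had 29.5, 31.3 and 32.9 CPM in the lines, against 76.8 and 83.0 CPM at day 28 (-1.36 ± 0.12, adjusted p = 1.08e-06).

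Of 77 genes of the mitochondrial ribosome tested, 16 rose and 18 fell in the CiPS lines against day 28, or 44.2%, against 59.5% of all genes, with a median of -0.05. Against MEFs 19 rose and 8 fell, or 35.1%, against 53.1% of all genes. Of 14 genes of the citric acid cycle, 2 rose and 7 fell against day 28, or 64.3%, against 59.5% of all genes. Of 12 nuclear regulators of respiration genes, 5 rose and 3 fell at day 16 against MEFs, or 66.7%, against 32.7% of all genes, and 6 rose and 3 fell in the CiPS lines against day 28, or 75%, against 59.5% of all genes. Ppargc1a, a coactivator of mitochondrial biogenesis, had 17.6 and 35.0 CPM at day 16, against 1.79 CPM in MEFs (3.87 ± 0.71, adjusted p = 0.00116). In the CiPS lines it had 0.371, 0.354 and 0 CPM, against 9.84 and 17.2 CPM at day 28 (-5.82 ± 0.56, adjusted p = 2.24e-06). Gabpa, an ETS factor known to bind promoters of respiration genes, had 156, 146 and 151 CPM in the lines, against 51.9 and 55 CPM at day 28 (1.5 ± 0.13, adjusted p = 6.51e-07). Esrrb, an oestrogen-related receptor that is also a pluripotency factor, had 805, 868 and 792 CPM in the lines, against 92.5 and 127 CPM at day 28 (2.90 ± 0.32, adjusted p = 6.87e-06). With crotonic acid averaged over the days, edgeR called 0 genes of these lists, against 1.04% of all genes. With the block 1 assembly factor and 1 gene of the mitochondrial ribosome fell, while 7.42% of all genes were called in either direction.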

How the data were processed

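Per the labels' protocols, mouse RNA was purified (Qiagen RNA mini kit) before NEBNext Ultra library construction. No source used here names the strandedness, aligner, counter, build or gene annotation. The authors deposited raw counts for 47643 genes and FPKM for 30849 genes; the FPKM divides by a library factor of 0.789 to 1.051 times the count total. Each table had 20 columns, of which 1 was not used. 419 IDs had no symbol. Intervals and floors (3 counts) cover counting error only.

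From the deposited counts, CPM and log2 changes were computed in R 4.3.3 with edgeR 4.0.16 (filterByExpr with a minimum count of 10, TMM, quasi-likelihood test, Benjamini-Hochberg adjustment over all genes). The 14 reprogramming libraries were fitted alone for day 28 against day 16 and for crotonic acid, and all 19, with the 3 CiPS lines as 1 group, for the other comparisons, which share the MEF library or the CiPS lines. DESeq2 1.42.0, limma-voom (limma 3.58.1), other scalings and filters, single libraries left out and a replicate block were alternatives. Same-numbered samples deviated together in all 21 pairs of groups (correlation 0.183 to 0.504), which is taken as pairing. Scripts were tested on simulated data. Nuclear copies were aligned with blastn 2.17.0.

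Members and lists were chosen with earlier results of these data known. Genes named came from the mitochondrial genes, the 6 largest rises and 6 largest falls per comparison among called nuclear members whose higher group had 5 CPM or more, the tissue isoforms, the 4 highest by mean FPKM in each complex and the 3 smallest p of each other list per comparison; examples beyond these were chosen after their values were seen. RefSeq promoters were matched by symbol for 66 of 84 nuclear members; those without a match include Ndufa2, Ndufa4l2, Ndufb9, Ndufs1, Sdhc, Uqcrb, Uqcrc2, Uqcrq, Cox4i1, Cox4i2, Cox6a2, Cox6c, Cox8c, Atp5a1, Atp5f1, Atp5mpl and Atp5s.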

Additional observations from a re-analysis of the deposited data

Results flagged for a closer look

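The share of mitochondrial member counts taken by mt-Co1 moved in opposite directions with crotonic acid at days 20 and 28. With crotonic acid it was 1.78 and 3.66 percentage points higher in the 2 pairs at day 20, while at day 28 the differences were -1.38 and -4.40 points. The mean effects differed by 5.61 points, and this difference was not tested.

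The share of all counts from nuclear members also differed in sign between days. At day 24 both pairs were higher with crotonic acid, by 0.0722 and 0.00106 percentage points, the second being close to no difference. At day 20 the differences were -0.144 and -0.140 points. Summed as CPM, the day 24 pairs went in opposite directions, by 530.8 and -245.4 CPM, while both day 20 pairs were again lower. The mean effects differed by 0.179 points, and this difference was not tested.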

How the results depend on the processing

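The number of members called depended most on scaling and on the libraries fitted. Apart from the replicate block, the share of all genes called under each alternative is not given here. The shifts below can therefore not be read as particular to the members. At day 16 against MEFs, 18 members became 52 with total-count scaling and 2 with only the groups compared, and 14 to 16 when a day 16 library was left out. For CiPS lines against MEFs, 27 became 42 with only the groups compared and 21 to 24 with a line left out. For CiPS lines against day 28, 49 became 35 to 44 with a library left out, and total-count scaling gave a nuclear split of 4 higher and 41 lower, against 8 and 36. With the replicate block, which pairs same-numbered samples, day 28 against day 16 gave 5 members in place of 1. The block was fitted to the 14 reprogramming libraries alone, and in the crotonic acid comparisons it called no member. Comparisons with MEFs or lines were not fitted with it. Averaged over the days, crotonic acid gave 0 members, and 1, Cox4i2, with no filter on low counts; leaving out libraries gave 0 in every crotonic acid comparison and for CiPS against ES lines. For members called in the main fit, 1064 values under the alternatives kept direction and side of the threshold, 154 lost the call and none changed direction. Values not called in the main fit, all those with crotonic acid among them, were not part of this count. The cause of these shifts was not tested. Single MEF, ES and three-step libraries and at most 2 libraries a group elsewhere limit precision.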
